A study of Mus musculus with 4 samples.

Results

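Dual reporter mice were used in the study to separate cancer-associated fibroblasts (CAF) that are transcribing *Cxcl13* from CAF that transcribed it earlier. The comparison described here sets the tdTomato-neg eGFP+ library (eGFP only) against the tdTomato+ eGFP-neg library (tdTomato only), across all genes. Cells were kept that had 500 to 6000 detected genes, at most 10% of their unique molecular identifiers (UMIs, 1 for each captured transcript) on mitochondrial genes, no *Ptprc* UMI, no *Pax3* UMI and at least 3 UMIs of *Col1a1*, *Col1a2* and *Col3a1* together. Of 11760 barcodes in both libraries 10379 were kept, 5745 of them tdTomato-neg eGFP+ and 4634 tdTomato+ eGFP-neg, out of 24489 barcodes in the 4 libraries of the series. At the collagen limit, 26 tdTomato-neg eGFP+ cells and 8 tdTomato+ eGFP-neg cells held exactly 3 collagen UMIs, and 27 and 17 otherwise eligible cells held 2 and were left out.

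All groups came from Cxcl13-cre-tdTomato mice crossed to R26R-eGFPflox mice and homozygous for the latter allele, host strain C57Bl/6, that carried B16-F1-OVA tumors for 14 days after an intraperitoneal injection. B16-F1-OVA is a mouse melanoma line that makes ovalbumin. The *Cxcl13* promoter drives both tdTomato and Cre in these mice, and Cre removes a stop sequence ahead of eGFP, so eGFP also marks cells in which the promoter was active only in the past. CD45-neg CD31-neg podoplanin-high cells were sorted by both reporters into tdTomato-neg eGFP+, tdTomato+ eGFP-neg, tdTomato+ eGFP+ and tdTomato-neg eGFP-neg cells, and each population was made into 1 library with 10x Genomics 3′ chemistry. Mice of both sexes were used in the study. Ages, and how many tumors went into each library, are not given in the sources used here, and the reporter transgenes themselves were not counted here.

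CXCL13 is the chemokine that draws B cells bearing CXCR5 into follicles, and in lymph nodes it is made by specialised stromal cells. In tumors it is tied to tertiary lymphoid structures, which are clusters of B and T cells. The peritoneal cavity is lined by mesothelial cells, a sheet of flat cells of mesodermal origin that carry keratins, mesothelin and uroplakins and that can also express collagens and podoplanin.

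The reporters read out the *Cxcl13* promoter, whose sequence is therefore printed here. Beside it stands that of *Upk3b*, a uroplakin of mesothelium and, of the 15 genes with the highest fold described further on, the highest with an entry in the promoter table and a match to a motif searched. Both are the 250 bases ahead of the transcription start, from RefSeq on build GRCm38.p6, and both lie on the plus strand. Capitals mark matches, on either strand, to TATAAA (the TATA box) or to CATTCC (the core bound by TEAD factors).
Cxcl13, chr5:95956689-95956938: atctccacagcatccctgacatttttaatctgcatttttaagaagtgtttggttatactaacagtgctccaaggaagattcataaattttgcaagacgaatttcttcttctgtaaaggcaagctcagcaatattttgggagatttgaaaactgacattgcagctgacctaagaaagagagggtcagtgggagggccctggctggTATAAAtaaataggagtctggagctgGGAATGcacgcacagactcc
Upk3b, chr5:136038246-136038495: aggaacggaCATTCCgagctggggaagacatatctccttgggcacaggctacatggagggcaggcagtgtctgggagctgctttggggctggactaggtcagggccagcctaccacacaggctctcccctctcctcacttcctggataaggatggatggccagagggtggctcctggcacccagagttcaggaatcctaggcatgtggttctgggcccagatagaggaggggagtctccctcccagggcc
In the *Cxcl13* window TATAAA matched at -46 to -41, counted back from the start, and CATTCC at -20 to -15 on the minus strand. In the *Upk3b* window CATTCC matched at -241 to -236 on the plus strand. The matches do not overlap. Among 27025 such windows of RefSeq genes TATAAA was in 13.0% and CATTCC in 12.6%. Of the mesothelial markers described below 17 of 25 had an entry, and CATTCC was in 7 of the 17 (41.2%), beside 10.5% of the 7797 genes that were compared and had an entry. It was in 12.7% of 71 genes higher in eGFP-only cells and 12.6% of 95 genes higher in tdTomato-only cells. TATAAA was in 5.63% and 15.8% of these sets, beside 6.34% of the same 7797. A match is a description of letters and not a bound site, and these shares were not tested.

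The tdTomato-neg eGFP+ library held 63310850 UMIs and the tdTomato+ eGFP-neg library 52046896. Kept cells had a median of 8397 and 9117.5 UMIs and of 2632 and 2811 genes. Barcodes were shared between the libraries in 13 cases, 9 of them among kept cells, and doublets were not removed. The 3 collagens of the rule reached 3837 against 5854 CPM (counts per 1000000 UMIs, summed over kept cells) for *Col1a1*, 3923 against 5306 CPM for *Col1a2* and 9269 against 14933 CPM for *Col3a1*. Mitochondrial UMIs stood apart, with a median share per cell of 0.176% in eGFP-only, 0.933% in tdTomato-only, 0.337% in double-positive and 0.702% in double-negative cells. The libraries also differed in the sex of their cells. Where a cell held UMIs of *Xist* or of Y-linked genes, and not of both, it was *Xist*-only in 43.7% of cases in the tdTomato-neg eGFP+ library and in 66.0% in the tdTomato+ eGFP-neg library, so the comparison was also read within *Xist*-only and within Y-only cells.

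All 12 fibroblast markers passed the filter on mean level, among them *Dcn* (2678 against 3726 CPM) and *Pdgfra* (241 against 341 CPM), in this order of tdTomato-neg eGFP+ and tdTomato+ eGFP-neg cells. Cells with a *Ptprc* or *Pax3* UMI had been removed by the rule, and of the other markers of immune, melanoma and endothelial cells the 21 immune genes together reached 95.6 and 119 CPM, the 11 melanoma genes 44.8 and 56.8 CPM and the 13 endothelial genes 99.3 and 112 CPM. *S100a9* was at 0 UMIs in both libraries, and *Cd3e* and *Cldn5* were at 0 UMIs in tdTomato-neg eGFP+ cells. Of the 9 pericyte genes only *Ndufa4l2* passed the filter, at a log2 fold of 0.12. *Mitf*, a melanocyte transcription factor (-1.25), and *Esam*, an endothelial adhesion molecule (1.40), were the called members of these lists.

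A gene was called when its CPM differed by 2-fold or more, that is by a log2 fold of at least 1 of tdTomato-neg eGFP+ over tdTomato+ eGFP-neg cells, among the 9828 genes with a mean CPM of at least 5. By this rule 100 genes, 1.02% of those compared, were higher in tdTomato-neg eGFP+ cells and 154, 1.57%, were higher in tdTomato+ eGFP-neg cells, 2.58% in either direction. These are the shares to set beside every count of called list members below. Over all genes compared the median log2 fold was 0.0076, with quartiles of -0.16 and 0.16. Each population is 1 library, so samples could not be tested against each other and p-values are left out. Intervals at 95%, which are exact Poisson for a CPM, exact Clopper-Pearson for a share of cells and exact conditional binomial for a fold, cover counting error only, and a called difference may lie between these 2 libraries and not between the populations.

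**Figure D1:**
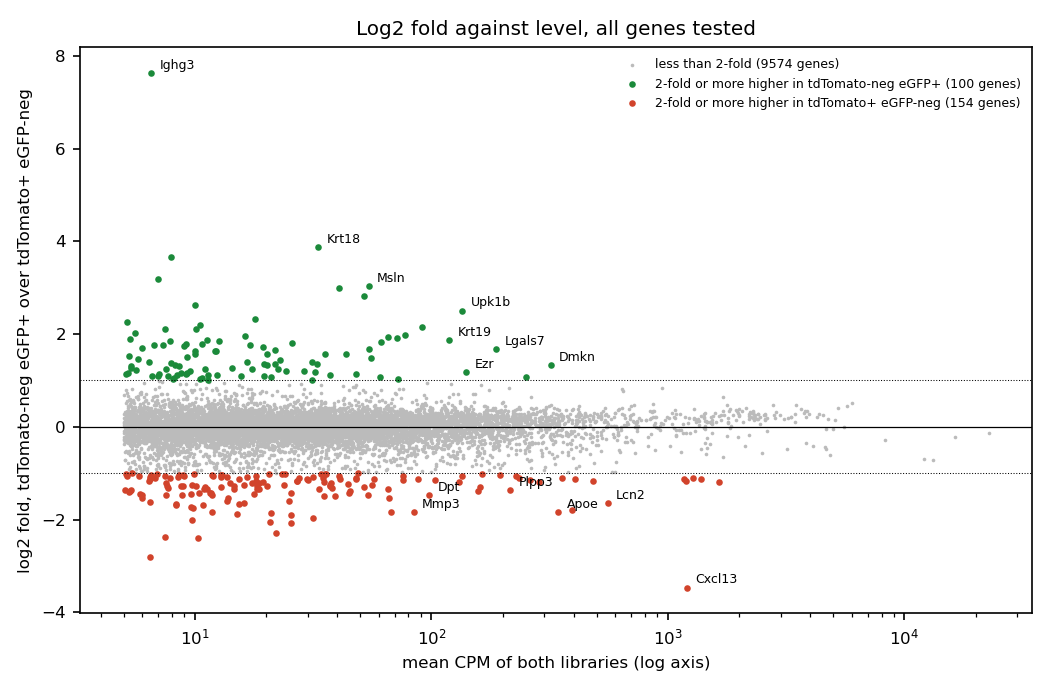
Log2 fold of tdTomato-neg eGFP+ over tdTomato+ eGFP-neg cells (vertical axis) against the mean CPM of both libraries (horizontal log axis) for 9828 genes, 1 point a gene; dotted lines mark 2-fold. *Cxcl13* lies lowest at -3.47, while *Krt18*, *Msln* and *Upk1b* lie above 2, and *Ighg3*, found in 0.122% of tdTomato-neg eGFP+ cells, lies highest.

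*Cxcl13* had the lowest fold of all genes compared, and since its promoter drove the sort, its level is a check of the tdTomato label. It reached 199 CPM in tdTomato-neg eGFP+ cells, 2203 CPM in tdTomato+ eGFP-neg cells, 1123 CPM in tdTomato+ eGFP+ cells and 222 CPM in tdTomato-neg eGFP-neg cells. The 95% interval was 195 to 202 CPM in tdTomato-neg eGFP+ cells and 2189 to 2216 CPM in tdTomato+ eGFP-neg cells, and the log2 fold was -3.47 (-3.50 to -3.44). Both tdTomato+ libraries were thus high and both tdTomato-neg libraries low, with the eGFP-only cells near the cells without any reporter. Between the tdTomato+ libraries, tdTomato-only cells held more *Cxcl13* RNA than double-positive cells, at 2203 against 1123 CPM. In the study's flow cytometry, tdTomato fluorescence had the opposite order and was higher in double-positive cells. The study proposes that lower Cre expression recombines floxed genes less efficiently in tdTomato-only cells. Why RNA and fluorescence differ in order was not tested. The log2 fold of eGFP-only over tdTomato-only cells was -3.02 in *Xist*-only cells and -3.77 in Y-only cells.

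The share of cells holding a *Cxcl13* UMI was 18.7% in the tdTomato-neg eGFP+ and 69.3% in the tdTomato+ eGFP-neg library. Cells that should lack the gene also held it. In the tdTomato+ eGFP-neg library 46.4% of 69 *Pax3*-positive melanoma-type cells (median 18667 UMIs) and 53.4% of 193 *Ptprc*-positive cells (median 10094 UMIs) had a *Cxcl13* UMI, at 207 and 1995 CPM. In the tdTomato-neg eGFP+ library the shares were 5.26% of 95 *Pax3*-positive cells (median 21070 UMIs) and 14.3% of 84 *Ptprc*-positive cells (median 9876.5 UMIs), at 4.78 and 96.4 CPM. The *Ptprc*-positive cells carried fibroblast RNA too, with *Dcn* at 2013 and 2731 CPM. The part of free RNA and of doublets in the shares was not tested, and low counts per cell are not read as expression.

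The counts per cell separated the libraries further. After every cell had been thinned to 2000 UMIs, which left out 539 tdTomato-neg eGFP+ and 199 tdTomato+ eGFP-neg cells with fewer, 11.2% and 52.0% of cells held a *Cxcl13* UMI. Cells with 10 to 29 UMIs made up 1.08% of tdTomato-neg eGFP+ cells and 11.2% of tdTomato+ eGFP-neg cells, and cells with 30 or more made up 0.154% (95% interval 0.0664 to 0.303) and 3.59% (3.06 to 4.18). Without thinning, the 10% of cells with the most *Cxcl13* held 94.8% of its UMIs in the tdTomato-neg eGFP+ library and 64.3% in the tdTomato+ eGFP-neg library. What *Cxcl13* there was in eGFP-only cells was therefore held by few of them.

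**Figure D2:**
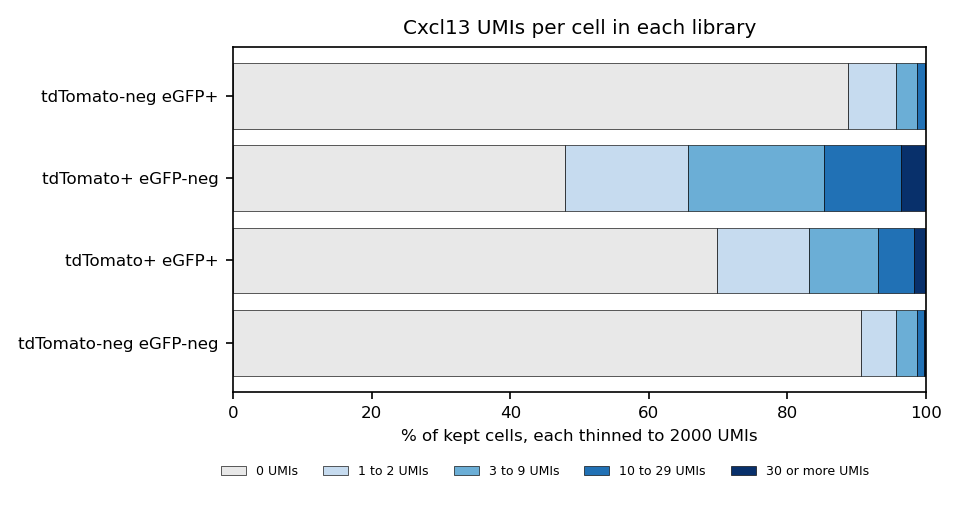
Share of kept cells (horizontal axis, %) by number of *Cxcl13* UMIs after thinning to 2000 UMIs a cell, 1 bar for each library, divided by shade into cells with 0, 1 to 2, 3 to 9, 10 to 29 and 30 or more UMIs. Cells with 0 UMIs made up 88.8% of eGFP-only, 48.0% of tdTomato-only, 69.8% of double-positive and 90.7% of double-negative cells.

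Mesothelial genes were higher in eGFP-only than in tdTomato-only cells. Of 25 mesothelial markers 23 passed the filter on level, and 15 of them rose by 2-fold or more in tdTomato-neg eGFP+ over tdTomato+ eGFP-neg cells, while 0 were called in the other direction. Their median log2 fold was 1.73, beside 0.0076 over all genes. Mesothelin, *Msln*, a surface protein of mesothelium, stood at 96.8 CPM in tdTomato-neg eGFP+ cells, 11.8 CPM in tdTomato+ eGFP-neg cells, 18.7 CPM in tdTomato+ eGFP+ cells and 100.2 CPM in tdTomato-neg eGFP-neg cells, a log2 fold of 3.04 (2.91 to 3.17). The 2 libraries without tdTomato were therefore high and alike, and the 2 with tdTomato were low.

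The simple-epithelial keratins, which form the intermediate filaments of mesothelial cells, followed the same order. *Krt18* stood at 62.2, 4.24, 4.87 and 133 CPM in tdTomato-neg eGFP+, tdTomato+ eGFP-neg, tdTomato+ eGFP+ and tdTomato-neg eGFP-neg cells, and its log2 fold of 3.87 (3.67 to 4.09) was the highest of the list. Its usual partner *Krt8* stood at 72.5, 9.09, 5.33 and 129.8 CPM in the same order, with a log2 fold of 2.99. *Krt7* stood at 90.7, 12.9, 15.8 and 127 CPM, with a log2 fold of 2.82. For *Krt19* the levels were 187, 50.9, 53.5 and 143 CPM and the log2 fold 1.88. *Krt7*, *Krt8* and *Krt18* were higher still in the cells without any reporter, and *Krt19* was not.

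Uroplakins, membrane proteins shared by bladder lining and mesothelium, were highest in eGFP-only cells. *Upk1b* stood at 230.2, 40.4, 91.7 and 179 CPM and *Upk3b*, whose promoter is printed above, at 149, 33.7, 78.0 and 102 CPM in the same order of libraries, with log2 folds of 2.51 (2.44 to 2.58) and 2.15 (2.07 to 2.23). *Lrrn4*, a leucine-rich membrane protein and mesothelial marker, stood at 124, 31.2, 50.8 and 70.2 CPM, a log2 fold of 1.99. In all 3 genes the tdTomato+ eGFP+ cells lay between the cells with tdTomato only and the cells with eGFP only. The mucin *Muc16* stood at 12.5, 1.37, 1.16 and 15.5 CPM, a log2 fold of 3.19 (2.82 to 3.59), and the membrane glycoprotein *Gpm6a* at 96.0, 26.8, 44.3 and 66.4 CPM, a log2 fold of 1.84.

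Not all of the list differed. *Wt1*, a transcription factor of mesothelium and its precursors, stood at 234, 221, 197 and 133 CPM in the same order, a log2 fold of 0.08. *Slpi*, a protease inhibitor and the most abundant member, had 832 against 604 CPM and a log2 fold of 0.46. *Rarres2*, the chemoattractant chemerin, and *Aldh1a2*, an enzyme of retinoic acid synthesis, had log2 folds of -0.87 and -0.61. Keratins, mesothelin and uroplakins were thus among the members that differed, and *Wt1* was not.

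**Figure D3:**
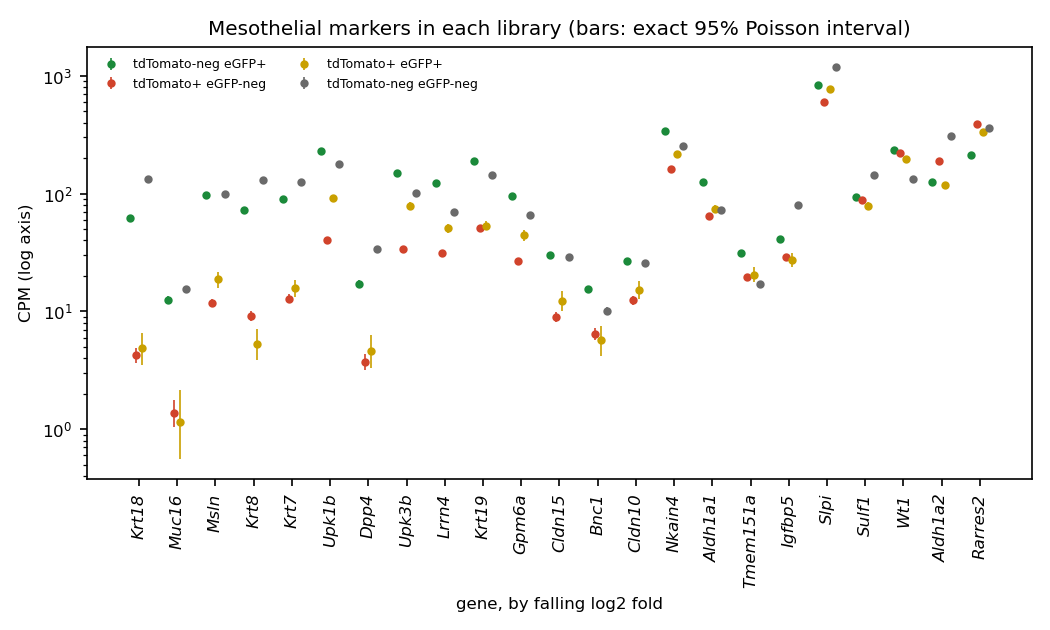
CPM (vertical log axis) of the 23 mesothelial markers that passed the filter in each of the 4 libraries, 1 point a library with its exact 95% Poisson interval. *Krt18*, *Msln* and *Krt7* are high in both tdTomato-neg libraries and low in both tdTomato+ libraries, whereas *Wt1* lies between 133 and 234 CPM in all 4.

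Shares of cells told the same order but not expression in single cells. A *Msln* UMI was found in 32.1% of tdTomato-neg eGFP+ cells and 4.40% of tdTomato+ eGFP-neg cells, or 14.1% and 1.49% after thinning. It was also found in 32.1% and 5.18% of *Ptprc*-positive cells and in 9.47% and 1.45% of *Pax3*-positive cells of the same libraries, at the depths given above. The *Msln* share as deposited was thus no higher than that in *Ptprc*-positive cells in either library, and it is not read as expression in single cells. The *Ptprc*-positive cells differed between libraries in the same direction. They carried *Dcn* RNA too, as given above, so they are no clean reference, and the comparison cannot tell background from expression. The sum of the mesothelial markers in each cell rests on more counts, but also on members that differed little. Summed over kept cells the list reached 3250 CPM in tdTomato-neg eGFP+ and 2023 CPM in tdTomato+ eGFP-neg cells. *Slpi*, within 2-fold, gave 832 and 604 CPM of these. It stood at 1972 and 2060 CPM in the *Ptprc*-positive cells of the same libraries. At 2000 UMIs a cell the median sum was 5 UMIs in tdTomato-neg eGFP+ cells and 3 in tdTomato+ eGFP-neg cells, and the top 10% of cells began at 15 and 8. At least 5 different markers were found in 31.6% and 8.73% of cells, and in 12.6% of double-positive and 25.5% of double-negative cells. These sums were not taken in *Ptprc*-positive or *Pax3*-positive cells. The part of free RNA and of doublets in them was not tested.

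The other differences were also read within ranges of mesothelial count. The thinned cells of each library were divided at the median sum of both libraries, 4 UMIs. Each is a range of a score and not a cell type, and 29.6% of tdTomato-neg eGFP+ and 37.0% of tdTomato+ eGFP-neg cells lay within 1 UMI of the limit. The upper range held 66.0% (95% interval 64.7 to 67.3) and 44.8% (43.4 to 46.3) of cells. In it 109 of 9883 genes (1.1%) were higher in tdTomato-neg eGFP+ cells and 276 (2.79%) in tdTomato+ eGFP-neg cells, and in the lower range 43 of 9735 (0.442%) and 74 (0.76%). Of the 85 called genes outside the mesothelial list that were higher in tdTomato-neg eGFP+ cells, 84 were above 0 in both ranges and 35 were 2-fold or more in both. Of the 154 called genes higher in tdTomato+ eGFP-neg cells, 153 were below 0 in both ranges and 63 were 2-fold or more in both. The ranges divide the cells in which these genes were called, so shared directions were largely given in advance and are no separate support. Fewer genes reached 2-fold in the lower range. The mesothelial markers, which drew the ranges, had 13 members higher and 1 lower in the upper range and 11 and 0 in the lower, with medians of 1.44 and 0.67. Mesothelial counts thus still differed between the libraries within each range, and the folds there are not adjusted for them. *Cxcl13* reached 180.2 and 2325 CPM in the upper range and 233 and 2116 CPM in the lower.

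Outside the mesothelial list, the genes higher in eGFP-only cells with a mean of at least 50 CPM included junction and surface proteins of epithelia. The claudin *Cldn3*, a tight junction protein, stood at 83.3, 25.9, 42.6 and 52.4 CPM in tdTomato-neg eGFP+, tdTomato+ eGFP-neg, tdTomato+ eGFP+ and tdTomato-neg eGFP-neg cells, a log2 fold of 1.69. Ezrin, *Ezr*, which ties the membrane to actin in microvilli, had 195 against 86.0 CPM and a log2 fold of 1.18. The sphingomyelinase *Smpd3* had 104 against 27.1 CPM, *Pkhd1l1* 113 against 29.8 CPM, the galectin *Lgals7* 286 against 89.6 CPM, the annexin *Anxa8* 82.1 against 29.4 CPM and the secreted *Dmkn* 457 against 181 CPM, with log2 folds from 1.33 to 1.94. Of 36 junction and adhesion genes that passed the filter 5 were higher in tdTomato-neg eGFP+ cells and 0 in tdTomato+ eGFP-neg cells. The median log2 fold of the list was 0.09, with 20 members above 0 and 16 below. *Chl1*, the most abundant member, had 391 against 770 CPM and a log2 fold of -0.98, just under the limit. In *Xist*-only cells 1 of the 36 was called and in the lower mesothelial range 2, with *Ezr* at 0.95 and 0.77. The called members also included P-cadherin *Cdh3* (1.36) and integrin β4 *Itgb4* (1.05).

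The highest fold of all belonged to *Ighg3*, an immunoglobulin heavy chain gene of plasma cells, at 13.0 against 0.0652 CPM, a log2 fold of 7.64 (95% interval 6.09 to 9.92). Only 0.122% of tdTomato-neg eGFP+ cells held it. It was named after its value had been seen, and it describes few cells and not the library.

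Among lymphoid organizer genes, which build and maintain B and T cell areas, 3 of 21 were called, all higher in tdTomato+ eGFP-neg cells, and the median log2 fold was -0.21. *Cxcl13* itself was among them. *Cxcl12*, the chemokine that holds CXCR4-bearing cells in stromal niches, stood at 175 CPM in tdTomato-neg eGFP+ cells, 609.7 CPM in tdTomato+ eGFP-neg cells, 531 CPM in tdTomato+ eGFP+ cells and 531 CPM in tdTomato-neg eGFP-neg cells, a log2 fold of -1.80 (-1.84 to -1.77). eGFP-only cells were here the low library and the other 3 lay close together. *Ccl19*, a T cell and dendritic cell attractant, stood at 10.8, 40.1, 19.9 and 74.5 CPM in the same order, a log2 fold of -1.90 (-2.03 to -1.76), and near-identical *Ccl19* copies such as *Ccl19-ps2* (-2.05) make its count uncertain. It was highest in cells without any reporter.

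The other organizer genes lay within 2-fold. *Cyp7b1* and *Ch25h*, enzymes that make the oxysterol that guides EBI2-bearing B cells, had log2 folds of -0.93 and -0.88, and *Tnfsf11* (RANKL) had -0.93. The B cell survival factors *Tnfsf13b* (BAFF) and *Tnfsf13* (APRIL) had -0.62 and 0.20. *Vcam1*, an adhesion molecule for lymphocytes, had 464 against 387 CPM and a log2 fold of 0.26, and the lymphotoxin β receptor *Ltbr* had -0.14. Each of these folds was smaller than that of *Cxcl13*.

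Of 19 other chemokines 3 were called, each higher in tdTomato+ eGFP-neg cells, with a list median of -0.36. *Ccl24*, an eosinophil attractant, stood at 33.9, 98.8, 106 and 25.6 CPM in the same order of libraries, a log2 fold of -1.55 (-1.62 to -1.47), so that both tdTomato+ libraries were high and both tdTomato-neg libraries low. *Ccl6* and *Ccl5*, also made by leukocytes, had log2 folds of -1.06 and -1.03, and in *Xist*-only cells -0.59 and -0.93, under 2-fold. Most immune markers moved with them. Of the 9 immune genes that passed the filter 8 were lower in tdTomato-neg eGFP+ cells, with a median of -0.77 and 0 called. *Lyz2* reached 7.59 against 13.2 CPM. The exception was *Csf1r*, at 36.9 against 21.1 CPM, a log2 fold of 0.81, and 1.05 in *Xist*-only cells. The part of leukocyte RNA in *Ccl5* and *Ccl6* was not tested. The abundant monocyte and neutrophil attractants lay within 2-fold, with log2 folds of -0.36 for *Ccl2*, -0.46 for *Ccl7*, -0.02 for *Cxcl1* and -0.55 for *Cxcl5*, as did the CXCR3 ligands *Cxcl9* (-0.84) and *Cxcl10* (-0.36).

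*Lcn2*, *Apoe* and *Ptx3* were among the genes with the lowest folds. *Lcn2*, lipocalin 2, which binds bacterial siderophores, stood at 269 CPM in tdTomato-neg eGFP+ cells, 844 CPM in tdTomato+ eGFP-neg cells, 814 CPM in tdTomato+ eGFP+ cells and 318 CPM in tdTomato-neg eGFP-neg cells, a log2 fold of -1.65 (-1.68 to -1.62). *Apoe*, a lipid carrier, stood at 149, 537, 343 and 259.6 CPM in the same order, a log2 fold of -1.85 (-1.88 to -1.81). *Apoe* was also high in *Pax3*-positive cells, at 1233 and 1375 CPM, and the melanoma genes *Pmel* and *Mlana* were at 8.70 against 7.85 CPM and 7.25 against 5.63 CPM. *Ptx3*, a soluble pattern receptor, stood at 29.6, 105, 38.9 and 199 CPM, a log2 fold of -1.83, with the cells without any reporter highest, and -0.99 in the lower mesothelial range. tdTomato-only cells were the higher of the pair in these genes, and the order of the other 2 libraries varied from gene to gene.

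The other genes with a mean of at least 50 CPM and the lowest folds had mixed roles. *Plpp3*, a lipid phosphatase that breaks down lysophosphatidic acid, stood at 121, 310.1, 226 and 403 CPM in the same order, a log2 fold of -1.36 (-1.40 to -1.31). *Apln*, apelin, a peptide ligand of vessels, stood at 37.1, 94.6, 68.3 and 23.4 CPM, and the integrin subunit *Itga9* at 33.3, 79.3, 69.4 and 27.3 CPM, with log2 folds of -1.35 and -1.25. *Spon1*, a secreted matrix protein, had 29.8 against 73.8 CPM and the channel protein *Calhm6* 28.5 against 79.0 CPM, with log2 folds of -1.31 and -1.47. *Apln*, *Itga9* and *Calhm6* were high in both tdTomato+ libraries and low in both tdTomato-neg libraries, and *Plpp3* was not. In the lower mesothelial range *Plpp3*, *Itga9* and *Spon1* had -0.93, -0.81 and -0.99, and in *Xist*-only cells -0.81, -0.92 and -0.63, all under 2-fold.

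NF-κB and acute inflammatory genes as a list lay within 2-fold apart from *Lcn2*: 1 of 35 was called and the median was -0.20. The serum amyloid *Saa3*, the most abundant, reached 10009.8 against 16482 CPM, a log2 fold of -0.72. *Nos2*, the inducible nitric oxide synthase, had -0.82 and *Ptgs2*, the cyclooxygenase of prostaglandin synthesis, -0.67. None of 59 interferon-stimulated genes, 25 MHC class I genes, 10 MHC class II genes, 34 hypoxia and glycolysis genes and 9 checkpoint and T cell ligand genes that passed the filter was called, with medians of -0.15, -0.05, -0.13, -0.05 and -0.08. The invariant chain *Cd74* reached 1862 against 1733 CPM and *B2m* 3521 against 4692 CPM. These counts stand beside 2.58% of all genes called, so few calls would fall in lists of these sizes. *Ctsh*, a lysosomal protease of the class II list at -0.91, was called in Y-only cells (-1.27) and in the upper mesothelial range (-1.36).

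Most matrix genes had log2 folds below 0. Of 21 collagen chains outside the rule 2 were called, both higher in tdTomato+ eGFP-neg cells, and 18 of the 21 lay below 0, with a median log2 fold of -0.55. *Col15a1*, of the basement membrane zone, stood at 87.3, 227, 200.3 and 201 CPM in tdTomato-neg eGFP+, tdTomato+ eGFP-neg, tdTomato+ eGFP+ and tdTomato-neg eGFP-neg cells, a log2 fold of -1.38 (-1.43 to -1.33). *Col14a1*, which binds collagen fibrils, had 21.8 against 52.8 CPM and a log2 fold of -1.28. In the lower mesothelial range none of the 21 was called, with a median of -0.29, *Col15a1* at -0.85 and *Col14a1* at -0.54. The basement membrane chains *Col4a1* and *Col4a2* had -0.89 and -0.87.

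Of 48 matrix glycoproteins and crosslinking enzymes 6 were higher in tdTomato+ eGFP-neg and 1 in tdTomato-neg eGFP+ cells, with a median of -0.39. Dermatopontin, *Dpt*, stood at 51.9, 144, 112 and 296 CPM in the same order, a log2 fold of -1.47 (-1.54 to -1.41), the hyaluronan synthase *Has2* had -1.28, and *Tnc*, tenascin C, -1.07. *Efemp1*, fibulin 3, was the member called in the opposite direction, with 97.1 against 47.2 CPM and a log2 fold of 1.04. In the lower mesothelial range none of the 48 was called, with a median of -0.22, *Dpt* at -0.86 and *Has2* at -0.83, and in *Xist*-only cells 1 was called in each direction. Abundant members lay within 2-fold, such as *Fn1* (2028 against 2989 CPM) and *Sparc* (7498 against 9111 CPM). In 7 small leucine-rich proteoglycans the only call was lumican, *Lum* (35.7 against 78.4 CPM, log2 fold -1.13), and it had -0.60 in *Xist*-only cells and -0.56 in the lower range. *Dcn* stood at -0.48 and *Bgn* at -0.50.

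Of 28 matrix proteases and inhibitors 6 were higher in tdTomato+ eGFP-neg cells and 1, *Dpp4*, in tdTomato-neg eGFP+ cells. *Mmp3*, stromelysin, stood at 36.9, 131, 106 and 49.4 CPM in the same order of libraries, a log2 fold of -1.83 (-1.90 to -1.76), with both tdTomato+ libraries above both tdTomato-neg libraries. *Mmp2* had -1.02, *Adamts15* -1.29, *Adamts12* -1.17, *Adam19* -1.05 and the lysosomal *Ctss* -1.03. *Dpp4*, a peptidase of mesothelium and of fibroblast progenitors, stood at 17.2, 3.74, 4.64 and 33.6 CPM, a log2 fold of 2.20 (1.97 to 2.45). In the lower mesothelial range *Mmp3* and *Dpp4* were the calls left, and in *Xist*-only cells *Mmp3*, *Ctss* and *Dpp4*. The fibroblast activation protein *Fap* had 12.1 against 21.9 CPM and a log2 fold of -0.86, and *Timp1*, the most abundant member, -0.48.

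Markers of universal fibroblast progenitors split. *Pi16* stood at 7.34, 23.4, 6.84 and 121 CPM in the same order and *Dpep1* at 5.63, 15.1, 6.49 and 93.7 CPM, with log2 folds of -1.67 and -1.43, so that eGFP-only and tdTomato-only cells both held less than the cells without any reporter. *Sfrp1* and *Sfrp4*, secreted WNT antagonists, were also called, at -1.15 and -1.36. *Sema3c* was the 1 member of this list called higher in eGFP-only cells, at 1.08, and *Cd34*, *Clec3b* and *Ly6a* lay within 2-fold at 0.39, 0.12 and -0.20. *Dpp4*, which the study names beside *Pi16* as a gene of universal fibroblasts, went opposite to *Pi16*, at 2.20. It was counted here with the mesothelial markers and the proteases and not in this list. Over the 19 members that passed the filter the median was -0.34, but 0.05 in *Xist*-only and -0.70 in Y-only cells. *Dpep1*, *Sfrp1* and *Sema3c* were under 2-fold in *Xist*-only cells, at -0.83, -0.73 and 0.68.

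Growth factors were called in both directions, 3 of 40 higher in tdTomato-neg eGFP+ and 4 higher in tdTomato+ eGFP-neg cells. *Bmp4*, a morphogen, stood at 16.7, 4.81, 4.52 and 17.3 CPM in the same order of libraries, a log2 fold of 1.79 (1.58 to 2.01), and *Rspo1*, an enhancer of WNT signalling, at 53.2, 17.8, 24.4 and 42.7 CPM, a log2 fold of 1.58 (1.47 to 1.69). Both were again high in the libraries without tdTomato. In the opposite direction *Hgf*, hepatocyte growth factor, had 3.07 against 8.94 CPM and a log2 fold of -1.54 (-1.81 to -1.28), the alarmin *Il33* 227 against 485 CPM and -1.10, *Rspo3* -1.08 and the EGF receptor ligand *Ereg* -1.04. In *Xist*-only cells *Il33*, *Rspo3* and *Ereg* were under 2-fold, at -0.60, -0.45 and -0.61, and in the lower mesothelial range 1 gene of the list was called in each direction. *Igf1* missed the limit narrowly, with 254 against 503 CPM and -0.98. Of 34 cytokine receptors only *Lifr*, the LIF receptor, was called (10.4 against 26.4 CPM, log2 fold -1.35), a share near the 2.58% of all genes called. *Lifr* had -0.98 in *Xist*-only cells, where *Tnfrsf11b*, the decoy receptor osteoprotegerin (0.90 over all kept cells), was higher in tdTomato-neg eGFP+ cells at 1.14. *Il1r1*, the IL-1 receptor, had -0.78.

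**Figure D4:**
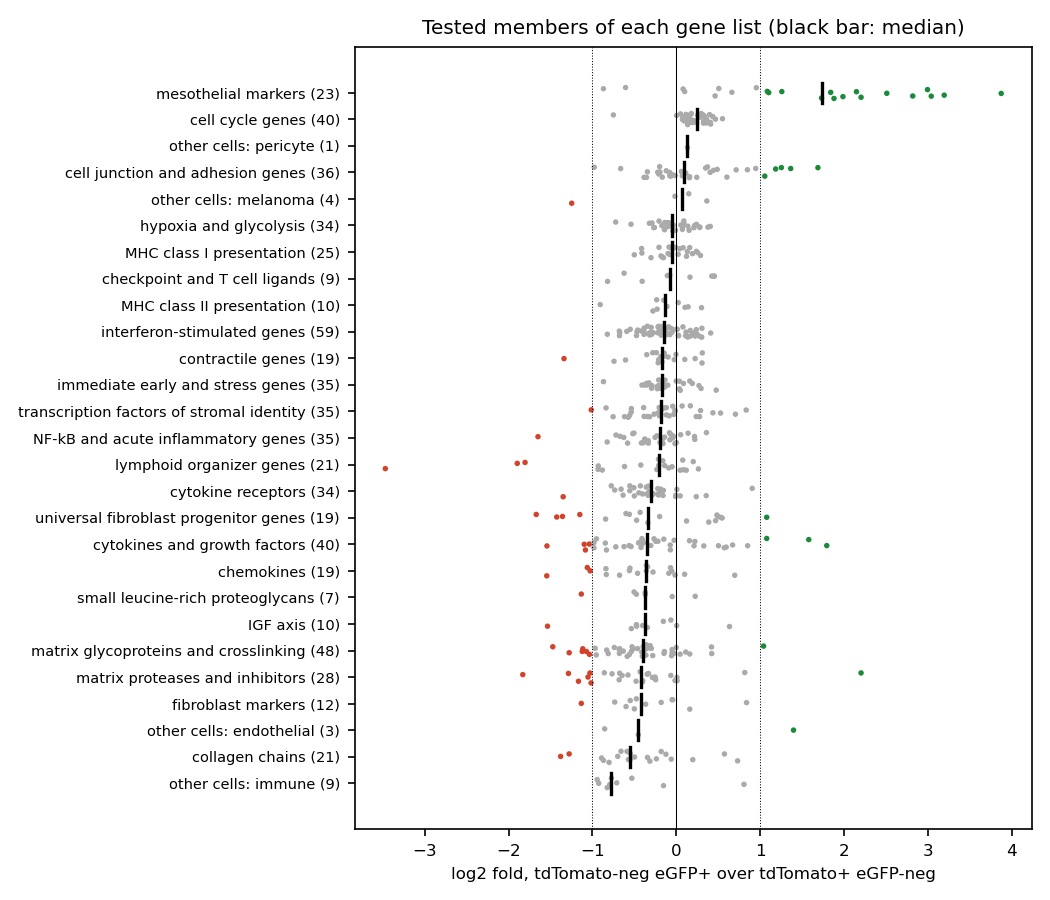
Log2 fold (horizontal axis) of the members of each gene list that passed the filter on level, 1 point a gene, with the number of members in brackets, the list median as a black bar and dotted lines at 2-fold. The mesothelial median is 1.73, and the medians of the other lists drawn run from -0.77 for immune genes to 0.25 for cell cycle genes; the sex-linked genes, with a median of 0.40, are not drawn.

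Cell cycle genes were slightly higher in eGFP-only cells. Of 40 members 39 lay above 0, none was called, and the median log2 fold was 0.25. This median was 0.11 in *Xist*-only and 0.24 in Y-only cells, and 0.36 and 0.14 in the upper and lower mesothelial range. *Mki67*, *Top2a* or *Cdk1* UMIs were found in 47.9% (95% interval 46.6 to 49.2) of tdTomato-neg eGFP+ cells and 42.3% (40.8 to 43.7) of tdTomato+ eGFP-neg cells, which may include free RNA. The exception was *Ccnd2*, cyclin D2, at -0.75. Of 19 contractile genes only *Mylk*, the myosin light chain kinase, was called (19.0 against 48.1 CPM, log2 fold -1.34), and *Tagln* had 194 against 325 CPM. *Mylk* was under 2-fold in *Xist*-only cells (-0.98) and in the lower mesothelial range (-0.88). Of 10 genes of the insulin-like growth factor axis list only *Stc1*, stanniocalcin, was called (-1.54), and of 35 immediate early and stress genes none, at a median of -0.18. Of 35 transcription factors of stromal identity only *Prrx2* passed the limit, at -1.02, and not in *Xist*-only cells (-0.75). With 2.58% of all genes called, a single call in lists of these sizes is not read as a result about the list.

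Mitochondrial genes were lower in eGFP-only cells as a block. Summed over 13 genes they reached 4968 CPM in tdTomato-neg eGFP+ cells, 10976 in tdTomato+ eGFP-neg cells, 5283 in tdTomato+ eGFP+ cells and 9245 in tdTomato-neg eGFP-neg cells. All 13 folds lay between -1.25 and -0.97, and 12 were called and are part of the 154. The 2 eGFP+ libraries were thus low and the 2 eGFP-neg libraries high, an order unlike that of *Cxcl13* or of the mesothelial genes. The median of 78 ribosomal protein genes was 0.22, with 0 called. The library and the population cannot be told apart here. Without mitochondrial genes in the totals, 143 genes were higher in tdTomato-only cells and 100 in eGFP-only cells.

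The 2 libraries left over form a pair that shares no library with this comparison, the tdTomato-neg eGFP-neg over the tdTomato+ eGFP+ cells. It too sets cells without tdTomato against cells with it, but the order of eGFP is reversed. A gene that follows eGFP therefore changes direction between the pairs. The mitochondrial genes, 12 of them among the 154, did so, with sums of 9245 over 5283 CPM. Of the 100 genes higher in tdTomato-neg eGFP+ cells, 92 (92%) were also above 0 in that pair, where 51.7% of all genes compared were above 0, and 50 were 2-fold or more, beside 232 of all 9828 genes. Of the 154 genes higher in tdTomato+ eGFP-neg cells, 67 (43.5%) were below 0 in that pair, where 48.3% of all were, and 31 were 2-fold or more, beside 170 of all. *Cxcl13*, *Lcn2* and *Mmp3* were among those that kept their direction, at -2.34, -1.36 and -1.11, whereas *Cxcl12* stood at 0.00, *Ptx3* at 2.35 and *Dpt* at 1.40. Genes higher without tdTomato thus mostly kept their direction in the second pair, and those higher with tdTomato were divided. This count was not tested.

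Read within cells of 1 sex mark, 96 of the 100 genes higher in tdTomato-neg eGFP+ cells were above 0 in both *Xist*-only and Y-only cells and 54 were 2-fold or more in both. Of the 154 higher in tdTomato+ eGFP-neg cells 150 were below 0 in both and 48 were 2-fold or more in both. The marked cells are among those in which these genes were called, so shared directions were largely given in advance. *Xist*-only cells numbered 1338 and 2000, and 79 of 9814 genes (0.805%) were higher in tdTomato-neg eGFP+ and 72 (0.734%) in tdTomato+ eGFP-neg cells. In the 1723 and 1030 Y-only cells 91 of 9952 genes (0.914%) and 273 (2.74%) were called. Folds of some genes differed between the marks, which was not tested. *Mfap4*, a microfibril protein, had -0.27 in *Xist*-only and -2.06 in Y-only cells, *Cxcl12* -1.30 and -2.35, and *Timp1* 0.05 and -0.97. Of the 23 mesothelial markers 14 were higher in tdTomato-neg eGFP+ cells among *Xist*-only and 12 among Y-only cells, where *Aldh1a2* (-1.18) and *Rarres2* (-1.29) were called in the other direction, with *Msln* at 3.54 and 2.49 and *Krt7* at 4.28 and 2.06. The sexes are different animals, so animal and sex cannot be told apart.

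**Figure D5:**
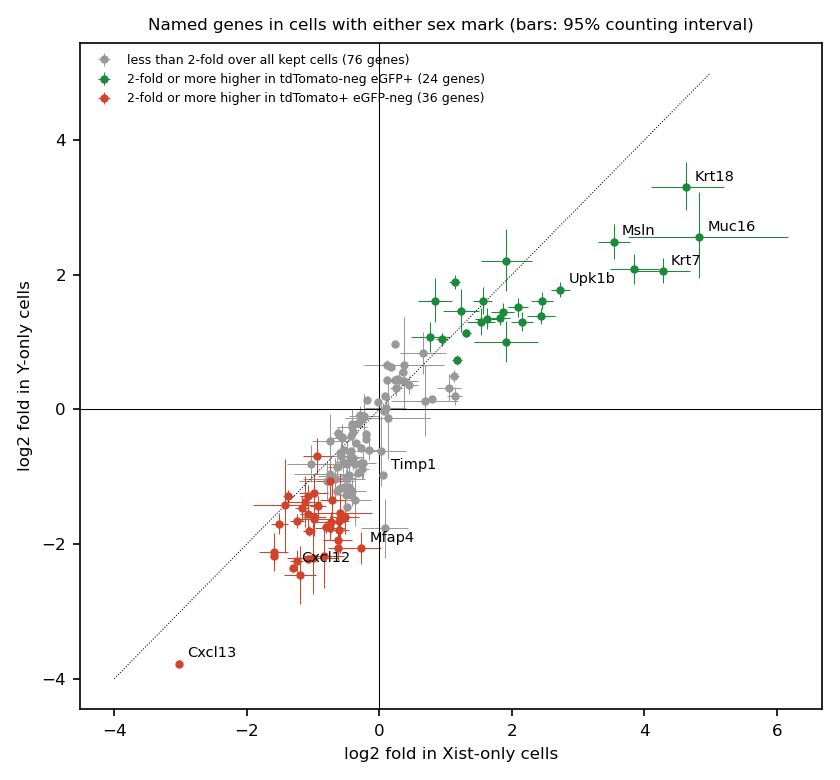
Log2 fold of tdTomato-neg eGFP+ over tdTomato+ eGFP-neg in *Xist*-only cells (horizontal axis) against that in Y-only cells (vertical axis) for the named genes, with 95% counting intervals, green for genes called higher in tdTomato-neg eGFP+ cells, red for genes called higher in tdTomato+ eGFP-neg cells and grey for the rest; the dotted line marks equal folds. *Cxcl13* is lowest in both, at -3.02 and -3.77, while *Timp1* lies at 0.05 and -0.97.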

How the data were processed

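Podoplanin-high cells of 4 reporter populations were sorted and sequenced by the authors, 1 library to a population. What the authors deposited are UMI counts for each gene and barcode without normalization, written by Cell Ranger 8.0.0 per the file headers, whereas the submitters' processing notes name Cell Ranger 10.0.0, STAR and Seurat 5.0 and the build GRCm39. Free RNA and doublets were not removed, which can spread abundant transcripts over cells.

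Counts were summed over kept cells with Python 3.11.15, numpy 2.4.6, scipy 1.17.1 and pandas 2.3.3 and scaled to CPM. Genes with a mean CPM of at least 5 were compared, and shares of cells were given as deposited and with each cell thinned to 2000 UMIs (seed 1). The *Xist*-only and Y-only cells carry marks of *Xist*, or of *Ddx3y*, *Eif2s3y*, *Kdm5d* and *Uty*. Tests across cells, which the study used, were left out, since cells from the same library are not replicates. Depth ran from 10071954 to 90259852 UMIs a library.

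The text names *Cxcl13*, the 15 highest and 15 lowest folds at a mean CPM of at least 50, up to 4 members of each of 28 gene lists by size of fold with the most abundant one, and other list members to show values within the limit; some of these genes are not reported here. The members, lists and this rule were chosen with earlier results of these data known. Simulated summed counts for this comparison checked the computing of folds and intervals, and not the summing over cells. They were drawn with Poisson error, which the intervals also assume, and 200 of 9828 genes were changed by more than 2-fold. Of these, 200 were called in the right direction, and 95.3% of intervals held the true fold. Both outcomes were largely given by these settings. The alternatives were a mitochondrial limit of 5%, a collagen limit of 10 UMIs or none, a mean CPM of 20 or no filter, means over cells, thinned cells, median-of-ratios scaling, cells of 1 sex mark, cells of 1 mesothelial range, cells without cycle UMIs, and the deepest 5% and cells with both sex marks left out.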

Additional observations from a re-analysis of the deposited data

Results flagged for a closer look

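In 4 named genes the fold pointed one way in *Xist*-only and the other way in Y-only cells, with both counting intervals off 0, and the difference between the sexes was not tested. *Timp1*, an inhibitor of metalloproteinases, had a log2 fold of 0.0532 in *Xist*-only cells and -0.9742 in Y-only cells. *Vim*, vimentin, had -0.1916 and 0.1449. *Cd74*, the invariant chain of MHC class II, had -0.0241 and 0.1162, and *Ifitm3*, an interferon-induced membrane protein, 0.0689 and -0.0239. Only for *Timp1* was either value close to the limit of 2-fold. Each is 1 library a side, and the animals behind the sexes are not given in the sources used here.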

How the results depend on the processing

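Of 16 alternatives, none turned the direction of any of the 61 called genes that the naming rule chose, where it was run on them. The alternatives reuse cells in which these genes were called, so a kept direction is no separate support. The 100 genes higher in tdTomato-neg eGFP+ cells became 43 in the lower mesothelial range, 1239 with no filter on mean CPM and 37 with a mean CPM of at least 20. The 154 genes higher in tdTomato+ eGFP-neg cells became 72 in *Xist*-only cells, 273 in Y-only cells, 276 in the upper and 74 in the lower mesothelial range, 1700 with no filter and 75 at a mean CPM of at least 20, where fewer genes are compared. The mesothelial count of 15 stayed between 10 and 16, and was 13 and 11 in the upper and lower mesothelial range, which these markers drew. The log2 fold of *Cxcl13* was -3.40 as a mean over cells, -3.39 in thinned cells, -3.02 in *Xist*-only cells, -3.77 in Y-only cells, -3.69 and -3.18 in the upper and lower mesothelial range, -3.23 in cells without a cycle UMI and -3.57 without the deepest 5% and cells with both sex marks. The cause was not tested. Of these genes 28 fell under 2-fold in the lower mesothelial range, 24 in *Xist*-only cells and 10 in cells without a cycle UMI, and at most 4 under any other alternative. Leaving out shared barcodes and leaving mitochondrial genes out of the totals were chosen after seeing the data and gave 100 and 151, and 100 and 143 genes. Median-of-ratios scaling moved all folds by 0.0076. No paired analysis was possible because each population has 1 library, and no library could be left out. With 1 library a population, depth limits counting error only.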
